A study of Homo sapiens with 12 samples.

Results

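Vehicle-only regions are stretches of chromatin that carried a peak of dimethylated lysine 4 of histone H3 (H3K4me2) in vehicle-treated U-937 cells and in none of the drug-treated ones. To find them, overlapping or touching peaks of the 4 deposited peak lists were merged into 84577 regions, and the 1864 regions with a DMSO peak and no ATRA, Corin or ATRA+Corin peak were kept. They were thus chosen by the measured peaks themselves, and they make up 3.68% of the 50651 regions that the DMSO list holds. Taken list by list, 9.07% of the DMSO regions (4594) had no ATRA peak, 9.62% (4872) no Corin peak and 6.98% (3537) no ATRA+Corin peak. U-937 is an established human myeloid leukaemia line that grows as immature monocyte-like cells. All groups are this same line, cultured for 24 h with DMSO alone, with all-trans retinoic acid (ATRA) at 0.1 µM, with Corin at 0.1 µM, or with ATRA and Corin at 0.1 µM each. Of the 12 libraries, 8 are H3K4me2 libraries (2 per treatment) and 4 are inputs (1 per treatment). Each treatment has 1 pooled peak list, so there is no spread between replicates, no test was possible, and 1 line limits how far the values describe other cells.

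H3K4me2 marks active and poised promoters and enhancers, and its width and height vary with the activity of the site. The demethylase LSD1 removes methyl groups from mono- and dimethylated H3K4 and works in the CoREST complex together with the histone deacetylases HDAC1 and HDAC2. Corin is a synthetic compound that inhibits both enzyme activities of this complex. ATRA is the ligand of the retinoic acid receptors, which bind DNA with RXR partners and drive differentiation of many myeloid leukaemia cells.

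Sequences under 5 of the strongest vehicle-only regions, the second to the sixth by −log10 q, are shown because base composition differed between these regions and those held by a drug list alone. The strongest, at PTGER1, is not shown because its stretch meets an untranslated region. Each is 150 bases around the summit (the point of most fragments in the peak), on the plus strand of hg38, with CpG dinucleotides in capitals. The first lies outside genes at chr1:4344350-4344499, 67183 bp from the start of LINC01777. The second lies in an intron of RGMA at chr15:93061443-93061592, the third over an exon of ASAP2 at chr2:9399658-9399807, the fourth outside genes at chr15:30223205-30223354 and the fifth in an intron of COL13A1 at chr10:69836307-69836456.
LINC01777: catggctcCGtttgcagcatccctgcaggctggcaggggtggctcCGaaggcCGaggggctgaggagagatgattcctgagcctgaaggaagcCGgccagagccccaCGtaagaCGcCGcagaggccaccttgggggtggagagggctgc
RGMA: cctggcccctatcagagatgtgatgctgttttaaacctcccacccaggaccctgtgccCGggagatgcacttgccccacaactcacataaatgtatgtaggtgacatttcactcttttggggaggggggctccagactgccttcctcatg
ASAP2: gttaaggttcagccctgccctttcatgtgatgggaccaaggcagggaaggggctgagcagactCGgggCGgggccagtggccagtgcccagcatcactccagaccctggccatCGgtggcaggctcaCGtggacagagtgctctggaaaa
LINC02249: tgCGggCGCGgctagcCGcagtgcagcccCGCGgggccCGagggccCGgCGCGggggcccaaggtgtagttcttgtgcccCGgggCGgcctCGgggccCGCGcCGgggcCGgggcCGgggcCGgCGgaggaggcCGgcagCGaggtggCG
COL13A1: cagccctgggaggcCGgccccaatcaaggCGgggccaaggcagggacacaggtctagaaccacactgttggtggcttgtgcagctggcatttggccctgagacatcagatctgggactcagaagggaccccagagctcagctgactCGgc

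These stretches range from 54.0% GC with 1 CpG at RGMA to 84.67% GC with 23 CpGs near LINC02249. The ASAP2 stretch holds 1 match to the E-box of MYC and 1 to the SP1 core, and the LINC02249 stretch holds 1 match to the SP1 core. The COL13A1 stretch holds 1 RUNX and 1 NF-Y core, and the LINC01777 and RGMA stretches hold no match to the motifs searched. For comparison, the strongest region of each drug list that no other list holds follows, drawn the same way: in an intron of NECAP2 at chr1:16444241-16444390 (ATRA alone), outside genes at chr20:56867615-56867764 (Corin alone) and in an intron of ITGA6 at chr2:172455930-172456079 (ATRA+Corin alone).
NECAP2: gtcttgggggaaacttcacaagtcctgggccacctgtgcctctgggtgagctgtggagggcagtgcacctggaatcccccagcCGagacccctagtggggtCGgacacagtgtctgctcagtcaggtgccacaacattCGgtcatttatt
ENSG00000231604: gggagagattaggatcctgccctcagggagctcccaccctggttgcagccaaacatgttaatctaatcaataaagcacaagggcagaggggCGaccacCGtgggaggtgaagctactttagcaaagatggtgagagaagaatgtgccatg
ITGA6: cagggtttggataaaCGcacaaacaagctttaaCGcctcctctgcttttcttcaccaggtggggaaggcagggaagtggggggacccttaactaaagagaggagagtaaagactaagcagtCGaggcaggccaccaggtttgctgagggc

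Their GC contents are 58.67%, 52.0% and 53.33%, with 3, 2 and 3 CpGs. The NECAP2 stretch holds 1 CTCF core, the stretch at ENSG00000231604 holds 1 loose C/EBP match (TTGCNNAA), and the ITGA6 stretch holds none of the motifs.

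The vehicle-only regions were weak and narrow. This strength is part of what the rule used, because a weak peak is more easily missing from another list, so it is given as a description. Each region was a single peak, with a median width of 254 bp (quartiles 197 to 351), against 1818 bp for the 43264 regions in all 4 lists. The number of H3K4me2 fragments at a summit can be recovered from the deposited fold and −log10 p. The median vehicle-only summit held 17 fragments (quartiles 15 to 20, range 10 to 50), where 3.28 fragments were expected from the background, against 58 fragments for regions in all 4 lists. The median deposited −log10 q was 2.85 (quartiles 1.88 to 4.0), compared with 24.6 for regions in all 4 lists. Regions held by 1 drug list alone were weak and narrow as well. For ATRA, Corin and ATRA+Corin alone, median widths were 270, 273 and 293 bp. Their median summits held 18, 17 and 20 fragments, and their median −log10 q was 3.61, 3.09 and 3.44. Of the 1864 regions, 273 (14.6%, 95% Wilson interval 13.1 to 16.3) had a −log10 q of at least 5, 23 had at least 10, and 513 were under 2. Intervals here cover counting error only, since regions of 1 list share its libraries.

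Strength and membership moved together along the whole DMSO list. Among DMSO regions whose peak had a −log10 p between 3 and 4, 23.6% were vehicle-only (446 of 1887). The share was 11.2% between 5 and 6, 3.01% between 8 and 10, and 0.121% between 15 and 25. At 25 and above it was 0 of 22602 regions. Every DMSO region at or above a −log10 p of 25 therefore had a peak in at least 1 drug list.

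The lists, each labelled as a reproducibility overlap, are incomplete in the weak range. The peak caller numbers its peaks, and the numbers absent from a list show how many peaks of a given strength were called and are not in it. Of the numbered DMSO peaks with a −log10 p between 3 and 4, 46.7% are in the list, against 39.9% (ATRA), 47.7% (Corin) and 64.2% (ATRA+Corin). Between 8 and 10 the shares are 97%, 95.4%, 97.4% and 98.8%. In the weak range that holds most vehicle-only regions, a region with no peak in a drug list may thus have been called there and left out. How many of the 1864 this touches was not tested. Of the 1864 regions, 150 had a −log10 p of at least 8.

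**Figure D1:**
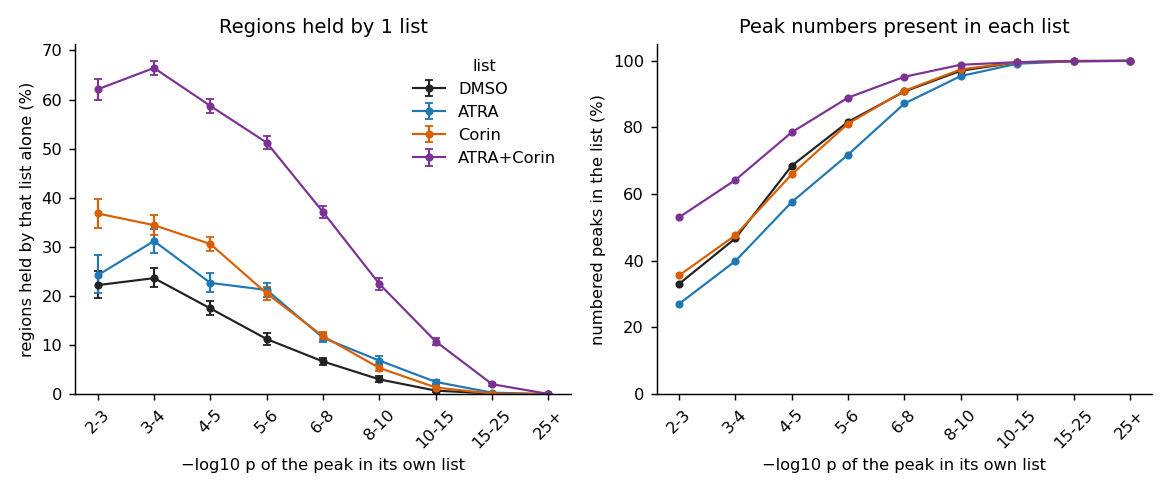
Left, share of each list's regions that no other list holds (y axis, %, bars are 95% Wilson intervals) by the −log10 p of the region's strongest peak in that list (x axis). Right, share of the peak caller's numbered peaks that are in each list. The DMSO line falls from 23.6% at a −log10 p of 3 to 4 to 0 above 25.

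Each drug list also held regions of its own, and the vehicle list held the fewest. ATRA alone held 2450 regions (4.38% of its list), Corin alone 4030 (6.67%) and ATRA+Corin alone 13794 (18.6%). Fewer vehicle-only regions were thus present than regions of any drug list alone. Depth per library is not known. The lowest background of a list, in fragments, followed the same order as the counts and was 2.915 (DMSO), 2.963 (ATRA), 3.198 (Corin) and 3.494 (ATRA+Corin). The part of the background level in these counts was not tested.

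The strongest vehicle-only region lay at PTGER1, which encodes the prostaglandin E2 receptor EP1. It covered an exon at chr19:14472122-14472693, held 50 fragments against an expected 3.565, and had a −log10 q of 22.1 and a fold enrichment of 9.92. A second vehicle-only region of 231 bp covered the PTGER1 start site 2565 bp away, with 21 fragments and a −log10 q of 4.11. The nearest peak of a drug list was 2801 bp from the first and 5 bp from the second. For both it was the same Corin peak, with a −log10 q of 4.87. Another DMSO peak, with a −log10 q of 13.0, lay 131 bp from the second.

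Other strong regions stood far from any drug peak. The region near LINC01777 held 46 fragments against 3.277, and the nearest drug peak was 293318 bp away. The region in RGMA, a guidance molecule that binds neogenin, held 39 fragments against 2.915, and the nearest drug peak was 11122 bp away. The region at ASAP2, an Arf GTPase-activating protein, held 40 fragments against 3.985 at 21214 bp from the nearest drug peak. LINC02249 (35 fragments) and the introns of the collagen genes COL13A1 (36) and COL4A1 (41) and of PKD1L1 (37) followed in the order of −log10 q. Of these, the COL4A1 region was the nearest to a drug peak, at 7156 bp.

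Of the 25 strongest regions, 12 lay in introns, 4 in exons, 3 over a start site and 6 outside genes. A drug peak lay within 1 kb of 6 of them and over 10 kb from 13. The 75 bases at the summit, which is the read length, occurred once in the genome for all 25. At the end of this ranking, the region 8670 bp from MARVELD1 had 31 fragments against 3.618. Even these strongest members were modest beside the 58 fragments of the median region in all 4 lists.

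**Figure D2:**
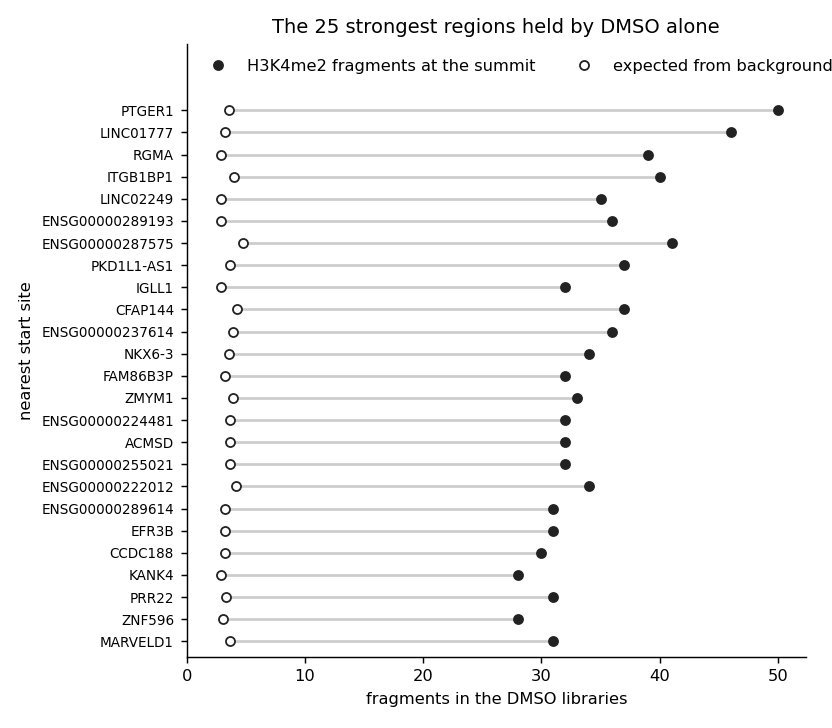
H3K4me2 fragments recovered at the summit (filled points) and fragments expected from the background (open points) for the 25 vehicle-only regions with the highest −log10 q, each labelled by the gene with the nearest start site. Fragments run from 28 to 50 and the background from 2.915 to 4.719; the ITGB1BP1 label marks the ASAP2 exon, and ENSG00000289193 the COL13A1 intron.

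Vehicle-only regions were seldom over promoters. They covered the canonical start site of 12 of 19959 protein-coding genes, and 8 of these start sites were over 1 kb from every drug peak. The widest of the 12 was at IGLL1, the lambda5 chain of the pre-B cell receptor surrogate light chain, with 2581 bp at chr22:23578240-23580820. It held 32 fragments against 2.915, with a −log10 q of 12.1, and the nearest drug peak was 38462 bp away. DNTT, the terminal transferase that adds bases at antigen receptor joins, had a region of 203 bp over its start at chr10:96304326-96304528. It held 23 fragments against 3.277, with a −log10 q of 6.50. A Corin peak with a −log10 q of 46.1 lay 502 bp away, and ATRA and ATRA+Corin peaks 593 and 988 bp away. Another DMSO peak, with a −log10 q of 65.8, lay 560 bp away, so the DNTT region was a small peak beside a stronger shared site. IGLL1 and DNTT are both known from lymphoid progenitors; they were singled out after their values were seen.

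Promoter stretches of these 2 genes, from RefSeq (GRCh38.p14), are shown in the direction of the gene, with matches to the motifs searched in capitals. The IGLL1 stretch is chr22:23580291-23580440 on the minus strand, with 150 of its bases under the vehicle-only region. The DNTT stretch is chr10:96304259-96304408 on the plus strand, with 83 bases under the region. It ends some bases short of the canonical DNTT start at 96304434.
IGLL1: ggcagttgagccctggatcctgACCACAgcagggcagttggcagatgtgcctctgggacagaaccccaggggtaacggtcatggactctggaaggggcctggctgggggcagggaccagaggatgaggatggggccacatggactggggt
DNTT: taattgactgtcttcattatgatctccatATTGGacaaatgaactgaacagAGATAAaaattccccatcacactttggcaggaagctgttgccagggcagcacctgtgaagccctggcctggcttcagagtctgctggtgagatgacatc

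The IGLL1 stretch holds 1 RUNX core and 1 CpG at 64% GC. The DNTT stretch holds 1 GATA core, 1 NF-Y core and 0 CpGs at 46.67% GC. Neither has the CpG density of a CpG island promoter.

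The other start sites under vehicle-only regions belonged to genes of varied roles. FLRT3, a cell adhesion protein, had 27 fragments against 2.915 and no drug peak within 401658 bp. TTC34 had 25 fragments against 3.303, and its nearest drug peak was 38137 bp away. The zinc finger gene ZNF283 had 25 fragments against 4.037, and its nearest drug peak was 17336 bp away. EPHB1, an ephrin receptor kinase, had 14 fragments against 2.915 at 57735 bp from a drug peak. MARCHF4, a ubiquitin ligase, had 14 fragments at 4548 bp, LRRC14B had 17 fragments at 2001 bp, and ARID3C had 13 fragments at 6425 bp.

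At ZNF596 and LAP3 the missing drug peak was close by. ZNF596 had 28 fragments and an ATRA peak with a −log10 q of 55.9 at 274 bp. LAP3, a leucine aminopeptidase, had 15 fragments and an ATRA peak with a −log10 q of 101 at 104 bp, and a DMSO peak with a −log10 q of 69.4 at 118 bp. At both, the vehicle-only region was a small peak beside a stronger peak of the drug lists.

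Proximity to a drug peak varied widely over the members. The median gap from a vehicle-only region to the nearest drug peak was 1775 bp. A drug peak lay within 250 bp of 24.7% of them (22.8 to 26.7), within 1 kb of 43.1%, within 10 kb of 75.2% and within 50 kb of 94.3%. Regions of ATRA alone and ATRA+Corin alone had median distances of 2326 and 1696 bp from the peaks of other lists, and those of Corin alone 718 bp. At the threshold of the rule, the smallest gap was 1 bp, at a region of −log10 q 2.24 near ENSG00000263466. A region near PALMD followed at 3 bp, and 20 members had a gap of at most 10 bp. Just outside it, among 37634 shared regions that hold a single DMSO peak, the smallest overlap with a drug peak was 3 bp, and 4 overlapped by at most 10 bp.

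**Figure D3:**
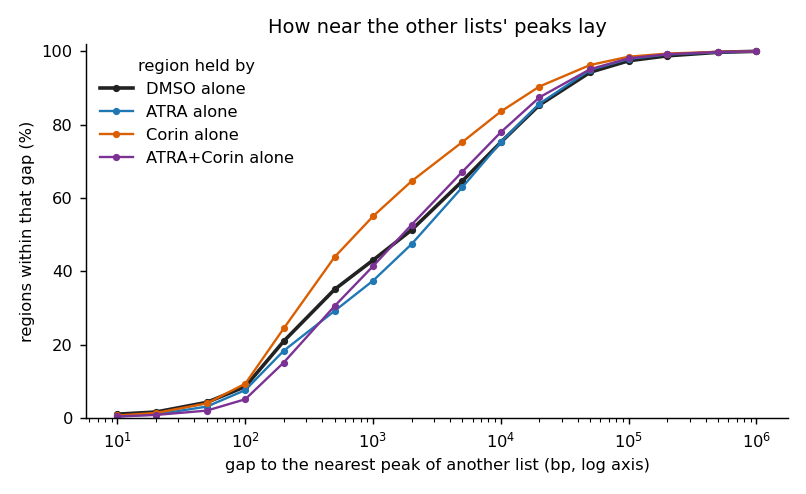
Share of regions (y axis, %) whose nearest peak in any other list lies within the distance on the x axis (bp, log axis), for the regions held by each list alone. The DMSO line passes 43.1% at 1000 bp and 75.2% at 10000 bp.

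Vehicle-only regions also lay near each other in part: 194 (10.4%) had another within 5 kb and 475 (25.5%) within 50 kb. The same shares are not given for other regions, so these counts are a description. Over the chromosomes, the share of DMSO regions that were vehicle-only ranged from 2.66% (2.10 to 3.38) on chromosome 12 to 4.75% (3.89 to 5.78) on chromosome 15. The X chromosome, at 3.88%, lay inside this range. Chromosome ends held more of them: 18.1% of vehicle-only regions (16.4 to 19.9) lay within 5 Mb of a chromosome end. The share was 11.7% for ATRA alone, 10.1% for Corin alone, 6.90% for ATRA+Corin alone and 11.7% for regions in all 4 lists. The vehicle-only interval lay above the other 4. Base composition, given next, moved with this, and its part in the position was not tested.

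Most vehicle-only regions lay inside genes and away from start sites. Introns held 56.0% of them (53.7 to 58.2), exons 8.96% and the space outside genes 26.3%, all over 1 kb from a start site. A start site lay within 1 kb of 8.74% (7.55 to 10.1). That share was 6.37% (5.47 to 7.40) for ATRA alone, 4.39% for Corin alone and 4.51% for ATRA+Corin alone, and 37.9% for regions in all 4 lists. The vehicle-only interval lay above those of the 3 drug-only classes and below that of the shared regions. A start site was covered by 2.25% (42 regions, 28 of them at a protein-coding transcript), compared with 1.31%, 0.943% and 0.892% in the drug-only classes.

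GC content set the vehicle-only regions apart from the regions of each drug list alone. In the 300 bp around the summit, median GC content was 52.7% (quartiles 47.7 to 58.7) for vehicle-only regions. It was 49.0% for ATRA alone, 46.7% for Corin alone and 46.0% for ATRA+Corin alone. Regions in all 4 lists had 53.3%. Windows over 60% GC made up 19.6% of vehicle-only regions (17.8 to 21.4), 9.47% of ATRA alone, 3.92% of Corin alone and 3.28% of ATRA+Corin alone. Windows under 40% GC made up 5.42% (4.48 to 6.54) of vehicle-only regions, 11% of ATRA alone, 22.0% of Corin alone and 22.7% of ATRA+Corin alone. The intervals of the vehicle-only regions were apart from those of every drug-only class on both counts.

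**Figure D4:**
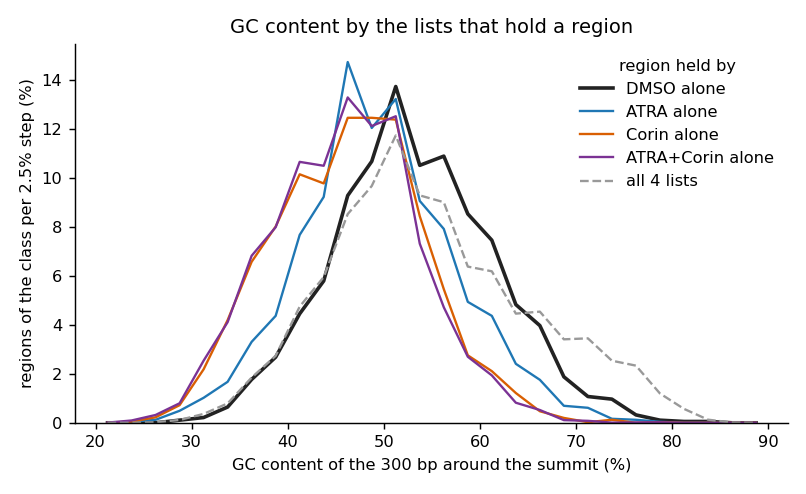
Distribution of the GC content of the 300 bp around the summit (x axis, %) as the share of each class per 2.5% step (y axis, %), for regions held by 1 list alone and regions in all 4 lists. The vehicle-only line (median 52.7%) lies to the right of ATRA alone (49.0%), Corin alone (46.7%) and ATRA+Corin alone (46.0%).

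This difference was not confined to promoters. Among regions over 1 kb from a start site, 17.8% of vehicle-only windows were over 60% GC (16.0 to 19.6), compared with 8.06% for ATRA alone, 3.53% for Corin alone, 2.88% for ATRA+Corin alone and 12.4% for regions in all 4 lists. Among regions with a −log10 q of at least 5, median GC was 55.7% for vehicle-only regions, 50.3% for ATRA alone, 48.0% for Corin alone and 46.3% for ATRA+Corin alone. CpG islands were few. A CpG observed over expected ratio above 0.6 with GC over 50%, the usual mark of an island, was met by 4.24% of vehicle-only windows (3.41 to 5.25), 2.41% of ATRA alone, 1.12% of Corin alone and 0.747% of ATRA+Corin alone, but by 21.5% of regions in all 4 lists. The median CpG ratio of vehicle-only regions was 0.220, against 0.206 for ATRA alone, 0.190 for Corin alone, 0.168 for ATRA+Corin alone and 0.316 for regions in all 4 lists. It thus lay above the medians of the drug-only classes and below that of the shared regions.

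The same relation appeared inside the DMSO list among weak regions, but not over the whole list. Over all DMSO regions, median GC was 52.7% for vehicle-only regions and 53.0% for the 48787 shared with a drug list. The vehicle-only share was 3.22% below 40% GC, 4.59% between 55 and 60%, and 1.05% at 70% and above. Among the weak regions, strength was capped, not matched. The vehicle-only share of DMSO regions was 23.6% at a −log10 p of 3 to 4 and 6.66% at 6 to 8. The part of this in the GC difference was not tested. Of DMSO regions with a −log10 p under 8, the 1714 that no other list held had a median GC of 52.3%, and the 10691 shared with a drug list had 47.7%. In the other lists the corresponding medians were 48.3% and 47.0% (ATRA), 46.3% and 46.7% (Corin), and 46.0% and 46.7% (ATRA+Corin). Among these weak DMSO regions, 5.74% (4.75 to 6.94) were vehicle-only below 40% GC, 11.2% between 45 and 50%, 21.7% between 55 and 60%, and 45.8% (36.2 to 55.8; 44 of 96) at 70% and above. For ATRA the share held alone went from 13.9% to 29.5% between the same ends. For Corin it went from 25.2% to 11.5%, and for ATRA+Corin from 56.6% to 18.4%. Among weak regions, from lowest to highest GC content, the share went up in the 2 lists without Corin and down in the 2 with it. This difference was not tested. Over all regions, the share went down between the same ends in every list.

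**Figure D5:**
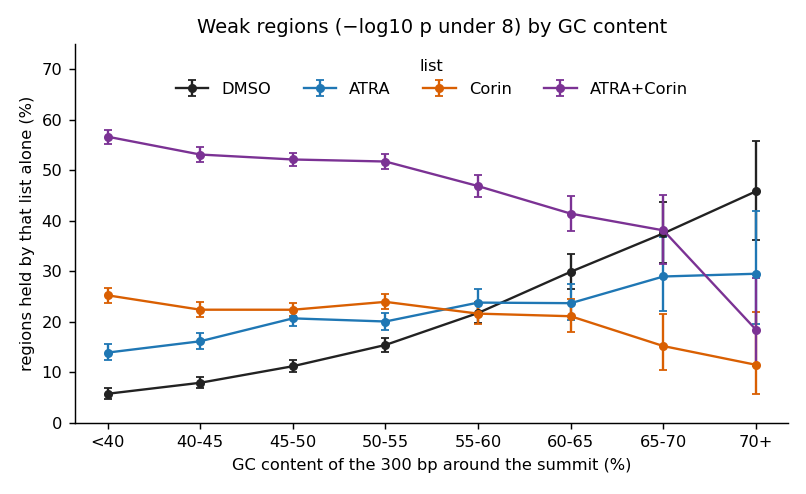
Share of weak regions (−log10 p under 8 in the named list) that no other list holds (y axis, %, bars are 95% Wilson intervals) by the GC content of the 300 bp around the summit (x axis, %). The DMSO line runs from 5.74% to 45.8% and the ATRA+Corin line from 56.6% to 18.4%.

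GC content also differed between the lists as wholes. Over all its regions, median GC at the summit was 53.0% in the DMSO list, 51.7% in ATRA, 50.0% in Corin and 49.3% in ATRA+Corin. In the 43264 regions that all 4 lists hold, the share of summits over 60% GC was 28.1% in DMSO, 25.8% in ATRA, 20.9% in Corin and 20.5% in ATRA+Corin. The GC content of the vehicle-only regions therefore moved with that of each list as a whole. Its part in which regions were called vehicle-only was not tested, and a difference between libraries in the recovery of GC-rich DNA cannot be told apart from a difference between treatments.

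Of the motifs rich in G and C, the SP1 core was more frequent in the 300 bp windows of vehicle-only regions than in each drug-only class, and the others gave no single order. Motifs were read on both strands, and a match is a description of letters, not a bound site. The classes differ in GC content, and its part in the motif shares was not tested. The SP1 core GGGCGG was present in 13.3% of vehicle-only windows (11.8 to 14.9), compared with 8.82%, 6.50% and 5.33% for ATRA, Corin and ATRA+Corin alone, and with 24.2% of regions in all 4 lists and 44.95% of RefSeq promoters of the same length. The E-box of MYC, CACGTG, was in 5.79% (4.82 to 6.95), against 4.37%, 3.55% and 2.91% in the drug-only classes and 7.26% of promoters. The CTCF core CCANNAGGG was in 8.69% (7.5 to 10.1), against 7.31%, 4.86% and 5.36%, and 6.44% of promoters. For both of these the interval met that of ATRA alone and lay above those of the other drug-only classes. The KLF motif CCACACCC was in 4.99% (4.09 to 6.07), with intervals that met those of ATRA alone (4.16%), Corin alone (5.56%) and ATRA+Corin alone (4.28%), and in 3.28% of promoters. The NRF1 motif GCGCATGCG was in 0.107%, against 0.204%, 0 and 0, and 1.92% of promoters.

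The following 3 A-rich motifs were less frequent in vehicle-only windows. The IRF pattern AANNGAAA, bound by interferon regulatory factors, was in 23.5% (21.7 to 25.5), against 35.1%, 33.3% and 37.3% for ATRA, Corin and ATRA+Corin alone and 22.8% of promoters. The core AAATCA of GFI1, a repressor that recruits LSD1, was in 12.7% (11.3 to 14.3), against 16.2%, 21.3% and 21.4%, and 13.2% of promoters. The GATA core AGATAA was in 10.3%, against 13.4%, 14.0% and 16.0%, and 10.3% of promoters. Regions in all 4 lists held them in 24.6% (IRF), 13.1% (GFI1) and 9.68% (GATA) of windows. The vehicle-only intervals of these 3 motifs lay below those of each drug-only class. They met those of the promoters and of regions in all 4 lists. Here too the part of GC content was not tested.

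Motifs of other myeloid regulators gave no single order. The PU.1 motif GAGGAAGT was in 3.92% (3.13 to 4.90) of vehicle-only windows, above Corin alone (1.99%), with intervals that met those of ATRA alone (5.02%) and ATRA+Corin alone (4.80%), and 2.59% of promoters held it. The AP-1 motif TGACTCA was in 5.63% (4.67 to 6.77), below Corin alone (9.35%) and beside ATRA+Corin alone (6.25%), with 4.95% of promoters. The loose C/EBP pattern TTGCNNAA was in 13.7% (12.2 to 15.3), below Corin alone (17.3%) and ATRA+Corin alone (17.9%). Its interval met that of ATRA alone (15.3%), and 10.5% of promoters held it. The C/EBP palindrome TTGCGCAA was in 0.268%, against 0, 0.174% and 0.0652% for ATRA, Corin and ATRA+Corin alone, with intervals that met. The RUNX core TGTGGT was in 22.3%, against 24.9%, 25.2% and 23.7%, and 13.1% of promoters. The nuclear receptor half-site AGGTCA, the unit that retinoic acid receptors bind, was in 20.6% (18.9 to 22.6), against 23.8%, 24.0% and 24.0%, and 13.8% of promoters. Direct repeats of this exact half-site at a spacing of 5 or 1 bases were in 0 of 1864 windows; the half-site matches of RUNX and nuclear receptors can overlap other motifs.

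Genes of 10 lists were read for nearby vehicle-only regions. Over all protein-coding genes, 10.2% (2037 of 19959) had one within 50 kb of the start site, and 14 genes had 4. Of 16 retinoid response genes, 1 did: RXRA, the partner of the retinoic acid receptors, with a region of 396 bp in an intron 11921 bp downstream of its start. That region held 14 fragments against 3.094, and an ATRA peak lay 211 bp away. Of 20 myeloid differentiation genes, 3 did. IRF8, the monocyte and dendritic cell transcription factor, had 3 regions between 10176 and 16428 bp downstream of its start, with 17, 17 and 15 fragments. The nearest drug peaks to these lay 412 bp (ATRA), 369 bp and 237 bp (ATRA+Corin) away. The neutrophil proteases ELANE and CTSG had regions 38921 bp and at least 41387 bp away, with 12 to 15 fragments. The ELANE region lay in an exon of PLPPR3, and those of CTSG lay outside genes.

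Of 13 CoREST and p300 genes, 3 had a vehicle-only region within 50 kb. RCOR2, a CoREST subunit, had a region 32701 bp away in an intron of MARK2 with 14 fragments. HMG20B, another subunit of the complex, had a region 25097 bp away in an intron of TBXA2R with 16 fragments. HDAC1 had a stronger region 43245 bp away with 30 fragments and a −log10 q of 9.36. This region lies in an exon of FAM167B and 2427 bp upstream of LCK, the T cell kinase, so it counts for LCK as well. The nearest drug peak lay 939 bp (Corin) from the RCOR2 region, 289 bp (ATRA) from the HMG20B region and 893 bp (Corin) from the HDAC1 region.

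Of 11 leukaemia stem and progenitor genes, CD34, BMI1 and ERG had a region in the window. The region of BMI1, a Polycomb subunit, lay 865 bp upstream of its start, in an exon of COMMD3. It held 14 fragments, and an ATRA peak was 109 bp away. The CD34 region, in an exon of the gene, held 17 fragments against a background of 6.554. The ERG region, in an intron, held 20 fragments, and an ATRA+Corin peak was 29 bp away. In all 3 cases a drug peak lay at most 109 bp from the vehicle-only region.

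The mast cell and basophil list had 5 of 10 genes near a vehicle-only region, but these rest on 3 regions. A single region of 201 bp, 115 bp upstream of the tryptase gene TPSD1 with 17 fragments, lies in the windows of TPSAB1, TPSB2, TPSD1 and TPSG1. A pair of regions with 15 and 12 fragments lies 25739 and 26361 bp upstream of the chymase gene CMA1 and in the window of CTSG. Of 12 lymphoid genes, CD79A, CD2 and LCK had a region. The CD79A region lay in an intron of RPS19. Of 14 cell cycle genes, CDK4 had a region, 14940 bp away in an intron of CYP27B1. Of 8 glucocorticoid, vitamin D and thyroid genes, THRA had a region. It lay 48813 bp from THRA, in an intron of a lncRNA and 1288 bp from a start site of CSF3. Of 10 erythroid and megakaryocytic and 12 REST-repressed neuronal genes, 0 did. The other counts were 1 of 16 (retinoid), 1 of 14 (cell cycle), 3 of 20 (myeloid) and 3 of 13 (CoREST and p300). They were 3 of 11 (stem and progenitor), 3 of 12 (lymphoid), 5 of 10 (mast cell) and 1 of 8 (glucocorticoid, vitamin D and thyroid). With so few genes per list, no list is read as above or below the 10.2% over all genes. Each count rests on at most 5 genes, several of which share a region, and no difference from the background was tested.

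Some genes had several vehicle-only regions. Of the 14 genes with 4 within 50 kb of the start site, the 5 with the highest summed −log10 q are named here. They are INPP5A, an inositol phosphatase, ABCC8, the sulfonylurea receptor of the ATP-sensitive potassium channel, INF2, a formin, ATP2B3, a calcium pump, and CCNQ, a cyclin. ATP2B3 and CCNQ are neighbours that share all 4. Within the gene body of ABCC8, 4 of 5 DMSO regions were vehicle-only, and 1 region of ATRA+Corin alone was present. Within ACOT7, an acyl-CoA thioesterase, 5 of 9 DMSO regions were vehicle-only, and 0 regions were held by a single drug list. GALNT2, a mucin-type glycosylation enzyme, had 5 of 22, also with 0 for the drug lists alone. PTPRN2 had 6 of 29, with 3, 1 and 6 regions of ATRA, Corin and ATRA+Corin alone. ALDH1A2, which makes retinoic acid from retinaldehyde, had 4 of 16, with 0, 4 and 4. These gene bodies were chosen after their counts were seen, so the counts against 3.68% are a description.

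The vehicle list was checked against markers of the labelled cell type. A DMSO peak covered the start site of 6 of 8 myeloid markers, with SPI1, CEBPA, CD33, LYZ, CSF1R and ITGAM marked. Of the other two, FCGR1A had a peak 672 bp away, and the nearest to MPO was 32900 bp away. Of the markers of other cell types, 2 of 4 T cell genes (CD2 and BCL11B), 0 of 4 erythroid genes and 0 of 4 epithelial genes were covered. Among B cell genes, CD79A was covered, and the nearest peaks to PAX5 and MS4A1 were 5705 and 9161 bp away. The part of other cells in the vehicle-only regions was not tested.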

How the data were processed

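H3K4me2 was mapped in U-937 cells by chromatin immunoprecipitation and paired-end sequencing, per the labels. The submitters' processing notes name Trimmomatic, Bowtie2, Picard, MACS2 and hg38. Versions and the calling threshold are not given in the sources used here. Each deposited list pools a treatment's H3K4me2 libraries and is labelled "reproducibility overlap" and "optimal peak". The part of this overlap in which weak peaks are absent from a list was not tested. A deposited score, fold ratio, −log10 p, −log10 q and summit offset (another number, in bases) accompany each peak. The score is the −log10 p times 10, capped at 1000 by the authors' caller. Members and gene lists were chosen with earlier results of these data known.

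Peaks were merged in Python 3.11.15 (pandas 2.3.3, numpy 2.4.6, scipy 1.17.1, pysam 0.24.0) and annotated with GENCODE release 44. Fragments were solved from fold and −log10 p (pseudocount 1, Poisson tail, tolerance 0.001): 99.7% of DMSO peaks, 97.3% of ATRA, 99.99% of Corin and 99.7% of ATRA+Corin peaks were solved; the solver was tested on simulated data. Depth per library is unknown. Named were the 25 members with the highest −log10 q, those over canonical protein-coding start sites, the 5 genes with most members within 50 kb, and listed genes with a member. The repeat-masked share of windows was not analysed here. 1 marker gene is not reported here.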

Additional observations from a re-analysis of the deposited data

How the results depend on the processing

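No paired analysis was possible because each treatment has 1 pooled list with no values per replicate, so no replicate could be left out either. The number of vehicle-only regions, 1864, became 273 with vehicle peaks of −log10 q of at least 5, 792 with that limit in all 4 lists, 1007 with peaks within 1 kb merged and 15333 with a reciprocal overlap of 50%, where wide and narrow peaks of one region no longer match. It was 150 with vehicle peaks of −log10 p of at least 8, an alternative chosen after seeing the data. Equal list lengths (2675), single peaks (1864), an overlap of 50% of the vehicle peak (2682) and, also chosen after seeing the data, unique summit stretches (1855) stayed within 1.5 times. The share within 1 kb of a start site, 8.74%, was 16.9% at 2.5 kb, 11.7% at a −log10 q of at least 5, 5.15% for protein-coding transcripts only and 7.45% with peaks within 1 kb merged. The share of genes with a region, 10.2% at 50 kb, was 2.5% at 10 kb, 18.5% at 100 kb and 1.5% at a −log10 q of at least 5, where the median number of fragments was 24. Median GC content stayed between 50.8% and 55.7% over 4 alternatives, inside the quartiles of the value reported. Of 19 motif shares, 14 left their interval with windows of 200 bp, 14 with 500 bp and 13 at a −log10 q of at least 5. With 17 fragments at the median summit, absence from a drug list means that no peak was listed there, not that the mark was absent.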
